A study of Mus musculus with 9 samples.

Results

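Fragments of transfer RNA (tRNA) families Asp-GTC and Asn-GTT, named by amino acid and by anticodon in DNA letters, were followed in RNA from mouse blood serum. A fragment here is 1 distinct read sequence, and it was a member when every alignment listed for it lay on a mature reference of 1 of these families. Of 41240 fragments and 555585 reads on tRNA references in 9 libraries, 2191 fragments and 15219 reads met this rule, which is 2.74% of the reads. Asp-GTC held 1832 fragments with 13926 reads, and Asn-GTT held 359 fragments with 1293 reads. No read lay on both families. Left outside were 26 sequences with 120 reads that also met another mature tRNA, and 115 Asp-GTC and 109 Asn-GTT reads on precursor references.

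The libraries belong to a study of atherosclerosis and of salvianolic acid B (SalB), a polyphenol from the roots of red sage. Each of 3 groups had 3 libraries of serum RNA at week 20: mice on normal diet, mice on high fat diet, and mice on high fat diet given SalB. The titles of the normal diet libraries carry the strain name C57, while the sources used here give no strain or genotype for the other groups and no dose or timing for SalB. Strain and diet therefore cannot be told apart in comparisons with normal diet. Nor do the labels say whether a replicate is 1 animal or a pool, and the spread that the p-values rest on may be technical.

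These families share a modified anticodon. In tRNAs for Asp, Asn, His and Tyr the guanine at the first anticodon base can be replaced by queuosine, which animals make from a base supplied by food and gut bacteria. Dnmt2 methylates cytosine 38 of Asp tRNA, in the anticodon loop, and both modifications are known to protect the tRNA from ribonucleases such as angiogenin, which cut in the anticodon loop and leave 5′ and 3′ pieces called tiRNAs. The sequencing shows where fragments begin and end and does not read either modification.

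The mature tRNAs were rebuilt from reads that matched them without a mismatch, and they are shown because every position below is counted on them, from 1 at the 5′ end, with the anticodon in capitals.
Asp-GTC-1-1: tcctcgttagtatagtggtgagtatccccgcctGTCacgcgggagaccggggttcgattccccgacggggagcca
Asp-GTC-2-1: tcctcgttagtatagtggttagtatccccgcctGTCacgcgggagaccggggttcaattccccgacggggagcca
Asn-GTT-3-1: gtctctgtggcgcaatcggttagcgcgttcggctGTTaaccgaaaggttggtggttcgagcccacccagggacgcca
Asp-GTC-1-1 and Asp-GTC-2-1 differ by G20T and G56A (the base of Asp-GTC-1-1 first), and each has 75 bases with its CCA tail and the anticodon at 34 to 36. In Asn-GTT-3-1, of 77 bases, the anticodon stands at 35 to 37. RefSeq lists 16 genes of 72 bases for Asp-GTC and 13 of 74 bases for Asn-GTT on mouse build GRCm38.p6, to which the tail is added after transcription. Of these, 5 Asp-GTC genes lie on chromosome 1 between 171037029 and 171102442, and 6 Asn-GTT genes on chromosome 3 between 96322074 and 96497854. Reads cannot be placed on 1 gene copy.

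The fragments on which the results turn are these, again with anticodon bases in capitals.
Asp 1 to 32: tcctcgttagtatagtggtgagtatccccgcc
Asp 1 to 34: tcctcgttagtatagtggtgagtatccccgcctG
Asp 1 to 35: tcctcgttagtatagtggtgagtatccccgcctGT
Asp 18 to 31: gtgagtatccccgc
Asp 31 to 53: cctGTCacgcgggagaccggggt
Asp 32 to 46: ctGTCacgcgggaga
Asp 32 to 53: ctGTCacgcgggagaccggggt
Asp 54 to 75: tcgattccccgacggggagcca
Asn 60 to 77: gcccacccagggacgcca
Asn 61 to 77: cccacccagggacgcca
The first group starts at the 5′ end and stops inside the anticodon loop, bases 32 to 38, and so has the form of a 5′ tiRNA. Asp 18 to 31 runs from the D loop to the last base before the anticodon loop, where Asp 32 to 53 begins. Asp 54 to 75 begins on the base after Asp 32 to 53 ends and runs through the CCA tail.

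The libraries held 28191 to 156333 tRNA reads and 1057 to 3347 member reads. These are not depths of whole libraries, because the lists hold reads on tRNAs alone, and for the same reason no marker of serum or of blood cells could be checked. Levels are given as normalised CPM, reads per 1000000 tRNA reads of the library after scaling by trimmed means of M values. SalB replicate 2 stands apart: it has 156333 reads and a scaling factor of 0.378 against 0.885 to 1.24 in the others, and Asp-GTC makes up 0.741% of its reads against 2.76% to 4.07% elsewhere. Leaving out reads on the precursor of Leu-CAG-3-1, this library has 90621 reads and an Asp-GTC share of 1.28%, still the lowest. Results are therefore also given without it where it decides them. Of the members, 34 passed the filter on low counts, 32 from Asp-GTC and 2 from Asn-GTT, and these hold 51.1% of Asp-GTC and 13.2% of Asn-GTT reads. A fragment could pass through 3 libraries of 1 group, so the 34 are not all members, and 1323 of the members were seen as 1 read only.

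The sum of all Asp-GTC fragments was not called in any comparison, while several of its parts were. The Asp-GTC sum was 32920, 26980 and 28060 CPM in normal diet replicates 1 to 3, 24750, 28820 and 25030 CPM with high fat diet, and 31210, 19630 and 30340 CPM with SalB. All 3 groups overlap, and SalB replicate 2 is the lowest library. The log2 fold change was -0.17 for high fat diet against normal diet, 0.02 for SalB against high fat diet and -0.15 for SalB against normal diet (SE 0.21 in each, limma-voom adjusted p = 0.925, 0.933 and 0.606). Over all 103 families tested, the share called was 0.00%, 34.0% and 36.9% in the same order. The sign of the SalB against high fat diet value turned with total count scaling (-0.86, not called) and in other settings given in the closing section.

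What changed was where the Asp-GTC reads began. Reads that start at the first base made up 53.4%, 68.7% and 64.1% of Asp-GTC reads in the normal diet replicates, 38.5%, 52.7% and 43.8% with high fat diet, and 17.7%, 15.2% and 29.0% with SalB. No 2 groups overlap, with normal diet highest and SalB lowest. These are shares within 1 family, so the scaling between libraries does not enter. The same shares were not taken for families other than Asp-GTC and Asn-GTT. Dividing the 9 libraries into 3 groups in each of 280 ways, an exact permutation test gave p = 0.00357, the smallest it can give, and 0.0196 after Benjamini-Hochberg adjustment over 22 shares of both families. Pairs of groups, 3 libraries against 3, cannot go below an exact p of 0.1. Internal reads, which touch neither end of the tRNA, took the opposite order: 43.9%, 29.3% and 34.4%, then 58.1%, 45.1% and 52.5%, then 78.8%, 80.7% and 68.5% (same exact permutation p and adjusted p). Internal reads and reads from the first base together make up nearly all Asp-GTC reads. The opposite order therefore follows from the first result and is not a second one. Reads up to the end of the CCA tail made up 2.03% ± 0.57, 3.12% ± 0.81 and 3.38% ± 0.86 (SD, n = 3 each). The listed reads have at most 40 bases, so one that starts at base 32 cannot reach base 75 and counts as internal. Pieces that run from there to the tail could not be seen whole.

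**Figure D1:**
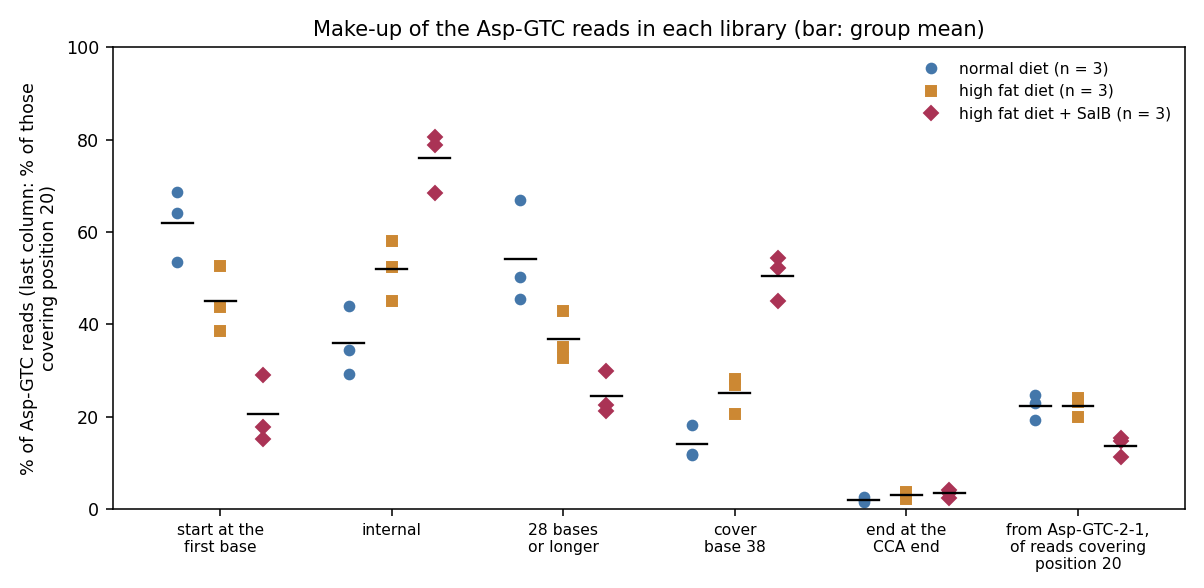
Percent of Asp-GTC reads with each property, 1 point per library and a bar for the group mean; the last column is a percent of the reads that cover position 20. Reads from the first base run from 53.4% to 68.7% with normal diet, 38.5% to 52.7% with high fat diet and 15.2% to 29.0% with SalB, and internal reads take the opposite order.

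In all, 5 of the 22 shares passed, each within Asp-GTC and each as a test over the 3 groups. Among them, the shares of reads from the first base and of internal reads nearly complement each other and count as 1 result. The shares of long reads and of reads over base 38, given next, come from the same reads and are not independent of that result. Few reads from the first base reach base 38, and those that end in the anticodon loop count among the long ones. Reads of 28 bases or longer made up 45.4% to 66.9% with normal diet, 32.7% to 42.9% with high fat diet, and 21.3% to 29.8% with SalB (adjusted p = 0.0196, exact permutation test). Over the pooled reads of each group, the median length was 28 bases with normal diet and 22 bases in both other groups. Normal diet replicate 3 holds 3086 of the 5796 normal diet reads. Reads that cover base 38, the cytosine that Dnmt2 methylates, made up 18.3%, 11.9% and 11.8% with normal diet, 28.2%, 20.5% and 26.8% with high fat diet, and 52.3%, 54.4% and 45.1% with SalB (adjusted p = 0.0196, exact permutation test). Those that cover the first anticodon base came to 41.9% ± 7.5, 42.2% ± 0.91 and 56.6% ± 2.4 (SD, n = 3 each) and missed the threshold (adjusted p = 0.0873, exact permutation test). The fifth share, of mismatches, is described further on.

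The ends fell on few bases. Over all libraries the most common last base was 31, with 2364 reads against 1091 at base 34. Its shares were 18.6% ± 3.2 with normal diet, 21.6% ± 2.0 with high fat diet and 9.19% ± 0.53 with SalB. At 34, the first anticodon base, 13.5% ± 5.4 of normal diet reads, 8.57% ± 2.8 of high fat diet reads and 2.32% ± 1.1 of SalB reads stopped. Ends at base 36, the last anticodon base, stood at 5.83% ± 0.14, 4.27% ± 0.51 and 5.79% ± 0.73. At base 53, where the T loop begins, the shares were 2.60% ± 0.27, 7.10% ± 1.4 and 20.9% ± 2.2 (SD, n = 3 each), without overlap between groups. By first base, position 32 gave 7.83% ± 2.6, 17.0% ± 2.6 and 25.2% ± 0.65, and position 31 gave 1.88% ± 0.81, 2.94% ± 0.72 and 12.4% ± 2.4. Starts at position 18 in the D loop were 7.36% ± 2.4, 8.92% ± 0.81 and 3.02% ± 0.90, while those at position 16 were 8.46% ± 1.8, 10.4% ± 1.6 and 15.7% ± 1.6. The single positions were not tested. With 6 bases before each break in lower case and 6 after it in capitals, on Asp-GTC-1-1 the break after base 31 reads ccccgcCTGTCA and the one after base 53 reads cggggtTCGATT.

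**Figure D2:**
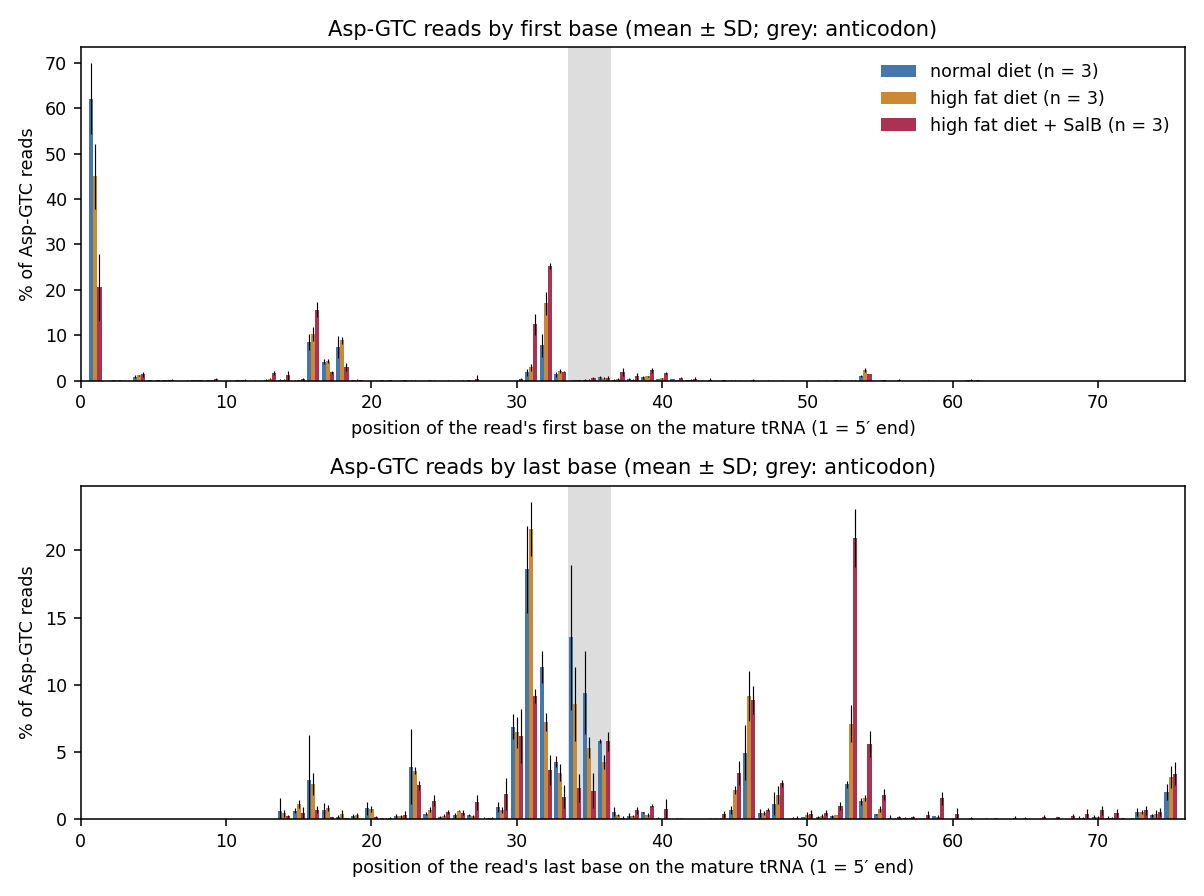
Percent of Asp-GTC reads by the position of their first base (upper panel) and last base (lower panel) on the mature tRNA, as mean and SD of 3 libraries per group; grey marks the anticodon. Starts at base 1 have a mean of 62.1% with normal diet and 20.6% with SalB, starts at base 32 of 7.83% and 25.2%, and ends at base 53 of 2.60% and 20.9%.

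Of 11 tested fragments that start at the 5′ end and stop in the anticodon loop, 10 fell with SalB against normal diet, and 3 of them (1 to 32, 1 to 34 and 1 to 35) also against high fat diet. The 11 are versions of the same tRNA copies that differ by an end or a mismatch, so they are not separate results. Some passed the filter chiefly through normal diet, which favours a fall. Asp 1 to 33 of Asp-GTC-2-1, for example, has 15, 7 and 27 reads there and 0, 3 and 3 with SalB. Of the 733 fragments tested over all tRNAs, 33.4% were called with SalB against high fat diet (18.4% higher), and 37.7% with SalB against normal diet (20.9% higher; limma-voom, adjusted p under 0.05). Of the 34 member fragments, 3 rose and 7 fell in the first comparison, and 5 rose and 16 fell in the second. This balance depends on the filter: with all 2191 members fitted and no filter, 23 rose and 10 fell in the first comparison and 36 rose and 20 fell in the second. No share called over all fragments is given for the fit without the filter, so its counts cannot be set against other tRNAs. The median log2 fold change of the 34 was -0.88 and -1.49, against -0.07 and -0.06 over all 733. Groups did not overlap for 17 of 34 members in the first comparison, against 50.2% of all 733, and for 22 in the second, against 49.4%. Both comparisons share the SalB libraries. Scaled by total counts, the member calls split into 0 risen and 23 fallen in the first comparison and 2 and 21 in the second, and that scaling moves the median of all fragments by -0.93 and -0.92. Without SalB replicate 2 the calls were 2 risen and 2 fallen against high fat diet and 4 and 10 against normal diet, and without SalB replicate 1 the second comparison had 3 and 10.

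Asp 1 to 34, which stops on the first anticodon base, was the most abundant tested 5′ fragment. It stood at 2255, 2591 and 1219 CPM in the normal diet replicates, 773, 1564 and 855 CPM with high fat diet, and 254, 153 and 435 CPM with SalB. Every SalB library lies under every other library, while the normal and high fat diet groups overlap. It fell 3.97-fold with SalB against high fat diet (log2 fold change -1.99, SE 0.49, limma-voom adjusted p = 0.0105) and 7.46-fold against normal diet (-2.90, SE 0.48, adjusted p = 0.00109). The copy from Asp-GTC-2-1 (G20T) fell 9.66-fold against normal diet (adjusted p = 0.0148, limma-voom), from 601, 986 and 337 CPM to 18.2, 33.9 and 179 CPM. For that copy the log2 fold change of -3.27 became -2.66 without SalB replicate 1, where the call is lost, and -3.92 without SalB replicate 3 (adjusted p = 0.0586 and 0.00651, limma-voom).

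Asp 1 to 35 had 1616, 2225 and 1491 CPM with normal diet, 540, 753 and 819 CPM with high fat diet, and 182, 186 and 666 CPM with SalB. The normal diet libraries stand above all the others, and SalB replicate 3 reaches into the high fat diet range. The log2 fold change was -1.35 against high fat diet (SE 0.46, limma-voom adjusted p = 0.0422) and -2.67 against normal diet (SE 0.45, adjusted p = 0.00119). The first of these calls is weak, since it is lost when any of 5 libraries is left out: normal diet replicate 1, high fat diet replicate 2 or 3, or SalB replicate 1 or 2 (adjusted p = 0.0534 to 0.164, limma-voom). Asp 1 to 32 ran from 817 to 1055 CPM with normal diet, 437 to 482 CPM with high fat diet and 169 to 218 CPM with SalB. Its groups do not overlap, and it fell against both diets (log2 fold change -1.20 and -2.16, limma-voom adjusted p = 0.0208 and 8.24e-04). The first call is lost without SalB replicate 2 (adjusted p = 0.0786, limma-voom).

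Shorter and longer 5′ fragments showed the range of this pattern. Asp 1 to 31, which stops on the last stem base before the loop, fell against both diets (log2 fold change -2.14 and -2.43, limma-voom adjusted p = 0.0165 and 0.00726), the values being -1.54 and -1.79 without SalB replicate 2, where the first call is lost (adjusted p = 0.083 and 0.0433). Asp 1 to 33 fell against normal diet from both tRNA copies (log2 fold change -1.91 and -2.80, limma-voom adjusted p = 0.0166 and 0.0181), each call being lost without 1 SalB library, replicate 2 for the former (-0.96, adjusted p = 0.0763) and replicate 1 for the latter (-1.71, adjusted p = 0.0936). Asp 1 to 36, which holds the whole anticodon, fell against normal diet (log2 fold change -1.20, limma-voom adjusted p = 0.024), and its SalB and high fat diet libraries overlap. From Asp-GTC-2-1, Asp 1 to 32 had 413, 788 and 373 CPM with normal diet and 72.6, 16.9 and 76.8 CPM with SalB and fell against normal diet (log2 fold change -3.12, SE 0.77, limma-voom adjusted p = 0.0095). Without SalB replicate 2 that value was -2.44 and still called (adjusted p = 0.0396, limma-voom). Asp 1 to 30, which stops inside the stem, fell against normal diet (log2 fold change -1.63, limma-voom adjusted p = 0.0368), although SalB replicate 3 lay among the normal diet libraries at 768 CPM. Asp 1 to 23, which ends in the D arm, was not called in any comparison (log2 fold change -0.19, -0.64 and -0.83, limma-voom adjusted p = 0.891, 0.328 and 0.186), and normal diet replicate 3 is its highest library at 1473 CPM.

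Fragments that start in the D loop went several ways. Asp 18 to 31 had 1466, 676 and 1182 CPM with normal diet, 1080, 927 and 982 CPM with high fat diet, and 272, 119 and 410 CPM with SalB. All SalB libraries lie under the rest, and both diets cover the same range. It fell 4.36-fold against high fat diet (log2 fold change -2.12, SE 0.46, limma-voom adjusted p = 0.00651) and 4.68-fold against normal diet (-2.23, SE 0.46, adjusted p = 0.00365). Without SalB replicate 2 the log2 fold changes were -1.52 and -1.59, both still called (adjusted p = 0.0215 and 0.014, limma-voom). Asp 16 to 31 shares its last base with that fragment and starts 2 bases earlier. Its values were 752, 394 and 628 CPM, then 788, 927 and 618 CPM, then 599, 695 and 538 CPM, and all groups overlap (log2 fold change 0.07 for SalB against normal diet, SE 0.33, limma-voom adjusted p = 0.88). Asp 17 to 31 from Asp-GTC-2-1 fell against both diets (log2 fold change -2.90 and -3.54, limma-voom adjusted p = 0.0128 and 0.00351) and has 2, 0 and 2 reads in the SalB libraries. Without SalB replicate 2, the library with 0 reads, the values were -1.98 and -2.58 and the first call is lost (adjusted p = 0.0587 and 0.0163, limma-voom). Asp 18 to 31 carrying C31T fell against both diets (log2 fold change -2.07 and -1.74, limma-voom adjusted p = 0.023 and 0.0427), the first call being lost without high fat diet replicate 1, SalB replicate 1 or SalB replicate 2 (adjusted p = 0.0569, 0.0685 and 0.0984, with a value of -1.42 in the last). Asp 16 to 30 rose with SalB against normal diet (log2 fold change 0.98, limma-voom adjusted p = 0.047), a call lost when any 1 of the 9 libraries is left out (adjusted p = 0.0513 to 0.181).

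Fragments that begin at the anticodon loop and run to the T loop rose with SalB. Asp 32 to 53 had 319, 253 and 264 CPM with normal diet, 686, 695 and 782 CPM with high fat diet, and 2033, 1169 and 1895 CPM with SalB. The groups do not overlap and stand in that order. Against high fat diet it rose 2.27-fold with SalB (log2 fold change 1.18, SE 0.31, limma-voom adjusted p = 0.0134), a call lost without high fat diet replicate 1 or 2 (adjusted p = 0.0687 and 0.0618). Against normal diet it rose 5.78-fold (2.53, SE 0.33, adjusted p = 4.12e-04, limma-voom). Asp 31 to 53, longer by 1 base, had 226, 197 and 109 CPM, 321, 290 and 146 CPM, and 1543, 966 and 947 CPM. Here the diets overlap and the SalB libraries stand well above both, with a rise of 4.62-fold against high fat diet (2.21, SE 0.42, adjusted p = 0.0034, limma-voom) and 7.20-fold against normal diet (2.85, SE 0.45, adjusted p = 8.37e-04). Without normal diet replicate 3 the latter value was 2.25 (adjusted p = 0.00741, limma-voom). Asp 32 to 54 rose against both diets as well (log2 fold change 1.09 and 1.75, limma-voom adjusted p = 0.0355 and 0.00522), the first call being lost when any of 5 libraries is left out (adjusted p up to 0.127). Only 6 of the 9 fits without 1 library tested this fragment, which did not pass the filter in the rest. With total count scaling the values against high fat diet were 0.32, 1.35 and 0.17 for these 3 fragments and none was called (adjusted p = 0.652, 0.0661 and 0.836, limma-voom). Against normal diet that scaling gave 1.73, 2.00 and 0.90 (adjusted p = 0.015, 0.011 and 0.25, limma-voom). There Asp 32 to 53 and Asp 31 to 53 stayed called and Asp 32 to 54 did not.

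Fragments with the same start and other ends were not all called. Asp 32 to 46, which ends in the variable region between the anticodon and T arms, was the most abundant member of all. Its values were 1428, 563 and 673 CPM with normal diet, 1503, 1304 and 1783 CPM with high fat diet, and 1307, 932 and 1357 CPM with SalB. The groups overlap, and it was not called in any comparison (log2 fold change 0.89, -0.37 and 0.52, limma-voom adjusted p = 0.382, 0.445 and 0.276). Asp 32 to 45, shorter by 1 base, rose with SalB against normal diet (log2 fold change 1.95, SE 0.50, limma-voom adjusted p = 0.011), a call lost without normal diet replicate 3 (adjusted p = 0.0937). Asp 54 to 75, which takes up the tRNA where Asp 32 to 53 ends, had 301, 197 and 146 CPM, 379, 319 and 528 CPM, and 236, 186 and 307 CPM. High fat diet libraries are the highest and the other groups overlap (SalB against high fat diet, log2 fold change -0.79, SE 0.40, limma-voom adjusted p = 0.146). The 2 neighbouring pieces thus have log2 fold changes of opposite sign in that comparison, and their difference was not tested. They do not cover the same copies, since Asp 54 to 75 aligns to Asp-GTC-1-1 alone and Asp 32 to 53 to Asp-GTC-2-1 as well.

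**Figure D3:**
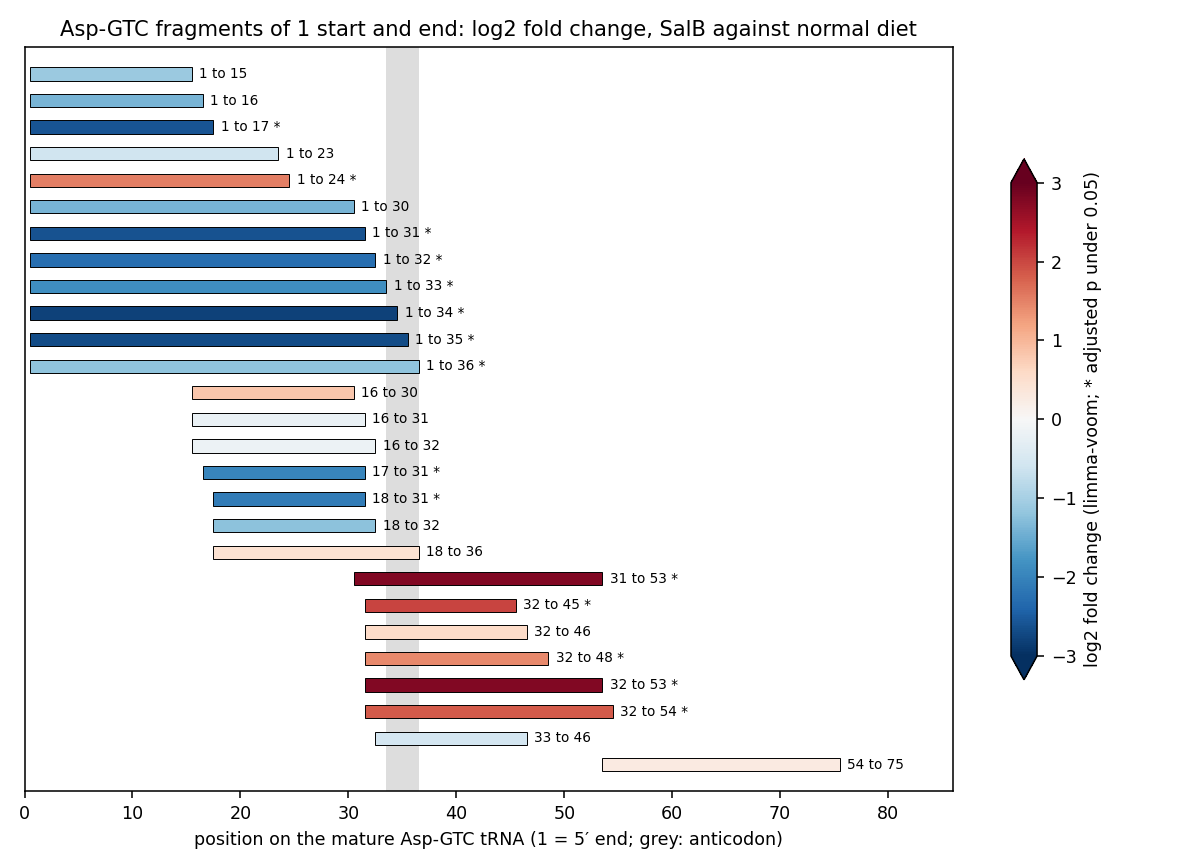
Asp-GTC fragments drawn from first to last base on the tRNA, with all reads of 1 start and end summed, and coloured by log2 fold change of SalB against normal diet (blue lower, red higher; colours stop at 3 in either direction). Blue bars with an asterisk stop between bases 17 and 36, and the darkest red bars are 31 to 53 and 32 to 53; 6 sums rose and 9 fell of 27.

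A fragment and its variants with 1 mismatch were also summed by start and end, a table added after the data were seen. Of 619 such sums over all tRNAs, 35.1% were called with SalB against high fat diet (20.4% higher and 14.7% lower) and 40.7% against normal diet (24.2% and 16.5%). Asp-GTC had 27 of them, of which 3 rose and 7 fell against high fat diet, and 6 rose and 9 fell against normal diet (limma-voom). Among those risen against normal diet was 1 from the 5′ end, 1 to 24, with 113, 141 and 109 CPM with normal diet and 454, 186 and 538 CPM with SalB (log2 fold change 1.53, SE 0.49, limma-voom adjusted p = 0.0273). Not all sums from the 5′ end therefore took the same direction.

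Reads were next summed into position classes, which use every member read and not only the tested fragments, a grouping also added after the data were seen. With SalB against high fat diet 19.9% of 161 class sums over all tRNAs were called (13.7% higher and 6.21% lower), and against normal diet 25.5% (16.8% and 8.70%). For the 10 member classes tested, 2 rose and 1 fell in each of these comparisons. With total count scaling the split was 0 risen and 3 fallen against high fat diet, and 0 and 2 against normal diet. The 5′ reads of 25 bases or more that end in the anticodon loop gave 12400, 14190 and 9930 CPM with normal diet, 5311, 8778 and 6403 CPM with high fat diet, and 2542, 1440 and 4327 CPM with SalB. No groups overlap, with SalB lowest. This class fell 2.63-fold with SalB against high fat diet (log2 fold change -1.39, SE 0.39, limma-voom adjusted p = 0.0322) and 4.73-fold against normal diet (-2.24, SE 0.37, adjusted p = 0.0025). Without SalB replicate 2 the values were -0.95 and -1.77 and both calls held (adjusted p = 0.0242 and 6.52e-04, limma-voom). The first call was lost without high fat diet replicate 2 or 3 or SalB replicate 1 (adjusted p = 0.0963, 0.0825 and 0.0512, limma-voom).

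**Figure D4:**
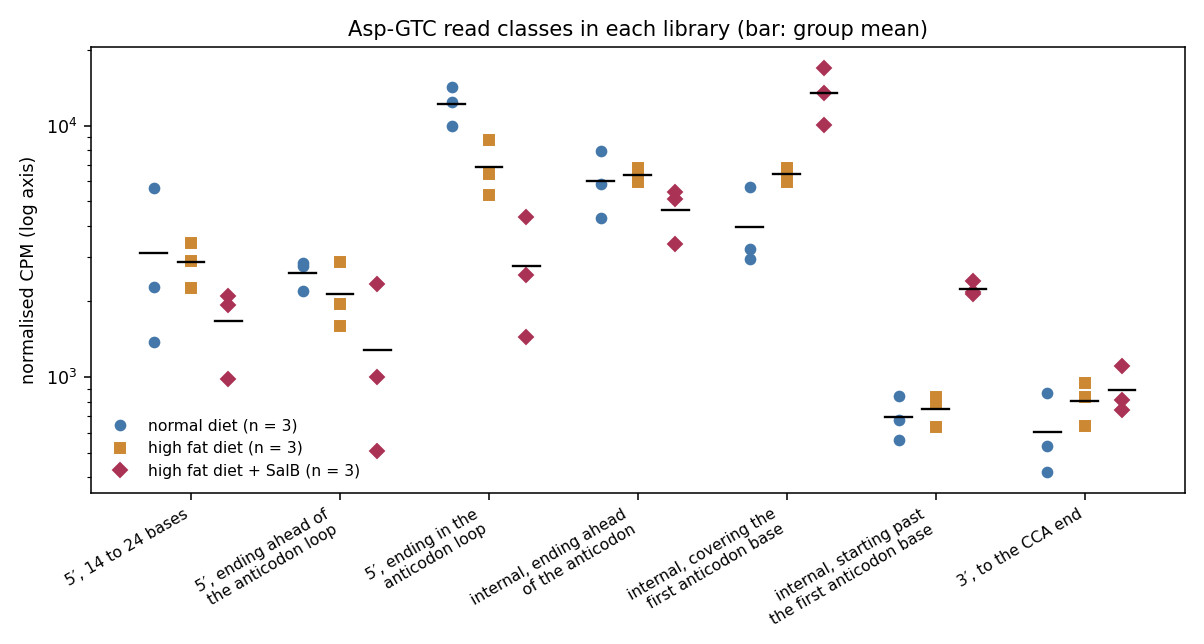
Normalised CPM (log axis) of 7 classes of Asp-GTC reads by position, 1 point per library and a bar for the group mean. The 5′ reads that end in the anticodon loop run from 9930 to 14190 CPM with normal diet and 1440 to 4327 CPM with SalB, while internal reads over the first anticodon base run from 2957 to 5675 CPM and 10060 to 16990 CPM.

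Internal reads over the first anticodon base gave 5675, 2957 and 3228 CPM with normal diet, 6770, 5968 and 6530 CPM with high fat diet, and 16990, 10060 and 13520 CPM with SalB. Again no groups overlap, now with SalB highest. They rose 2.05-fold with SalB against high fat diet (log2 fold change 1.03, SE 0.29, limma-voom adjusted p = 0.0348) and 3.51-fold against normal diet (1.81, SE 0.30, adjusted p = 0.0025). The first call was lost without any 1 of 6 libraries (adjusted p up to 0.156) and under 5 other settings, and held without SalB replicate 2 (1.28, adjusted p = 0.0061, limma-voom). With total count scaling neither was called (0.24 and 1.07, adjusted p = 0.774 and 0.122, limma-voom). Internal reads that start past that base had 846, 676 and 564 CPM, 832, 782 and 637 CPM, and 2142, 2406 and 2176 CPM. The SalB libraries are above all others and close together, and the diets overlap. This class rose 2.98-fold against high fat diet (1.58, SE 0.26, adjusted p = 0.0036) and 3.25-fold against normal diet (1.70, SE 0.26, adjusted p = 0.0025, limma-voom). Both calls held without each library in turn (adjusted p at most 0.0286), though with total count scaling the values were 0.76 and 0.98 and neither was called (adjusted p = 0.168 and 0.092, limma-voom). The internal reads that end ahead of the anticodon were not called (log2 fold change -0.49 and -0.38, limma-voom adjusted p = 0.232 and 0.352).

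The class of 5′ reads ending in the anticodon loop was tested in 11 other families, of which 0 were called with SalB against high fat diet and 1 fell against normal diet (median log2 fold change -0.14 and -0.45, limma-voom). Internal reads past the first anticodon base rose in 10 of 33 other families against high fat diet, and against normal diet 8 rose and 1 fell. Internal reads over that base were tested in 24 other families, of which 2 rose and 1 fell against high fat diet and 5 rose and 2 fell against normal diet. Of 30 other families tested for reads up to the CCA end, 6 fell against high fat diet and 7 against normal diet, and 0 rose. For 5′ reads of up to 24 bases, 2 of 20 other families rose against high fat diet and 4 against normal diet, and 0 fell. Whether the Asp-GTC values differ from those of other families was not tested.

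High fat diet against normal diet gave no call. Over all tRNAs 0.00% of 733 fragments were called and 12.4% had an unadjusted p under 0.05 (limma-voom), and of the 34 members 10 did. The smallest adjusted p among members was 0.19, for Asp 1 to 32 carrying C32T, which had 639, 648 and 546 CPM with normal diet and 131, 232 and 164 CPM with high fat diet (log2 fold change -1.87, SE 0.42). Groups did not overlap for 12 of 34 members, against 23.9% of all 733. Among them was Asp 32 to 53 with a log2 fold change of 1.35 (SE 0.34, limma-voom adjusted p = 0.218), higher in 3 of 3 high fat diet libraries. Next came Asp 1 to 32 (-0.95), Asp 1 to 35 (-1.32) and Asp 1 to 32 of Asp-GTC-2-1 (-1.41), each lower in 3 of 3 high fat diet libraries with a limma-voom adjusted p of 0.298. The class of 5′ reads ending in the loop had a log2 fold change of -0.85 and the internal reads over the first anticodon base 0.78, again without overlap of groups and without a call (limma-voom adjusted p = 0.273 and 0.259). For both classes and for Asp 32 to 53, every high fat diet library lay between the other groups.

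The fifth share to pass was a mismatch at the first anticodon base, the position of queuosine. Among reads covering that base it stood at 4.30% to 5.25% with normal diet, 3.02% to 4.59% with high fat diet, and 0.885% to 1.39% with SalB (means 4.85%, 3.62% and 1.07%) (adjusted p = 0.0314, exact permutation test). SalB is lowest without overlap, and the diets overlap. The mismatches sat at read ends. Of 1091 reads whose last base is the first anticodon base, 178 had the mismatch (16.3%), and of 5199 reads that run past it, 17 did (0.327%). Those 17 were 9 of 1597 reads with normal diet (0.564%), 5 of 1382 with high fat diet (0.362%) and 3 of 2220 with SalB (0.135%). The groups there stand in the order seen over all covering reads, on few mismatches, and this was not tested. Mismatches at the last base of a read were found in 23.3% of Asp-GTC reads and 19.3% of reads on all other mature tRNAs. A last-base mismatch cannot be told from an extra base on a shorter fragment, and the shares of reads that end at this base are those given above, lowest with SalB. Within the reads that end there, the mismatch stood at 15.5%, 10.5% and 18.8% with normal diet, 17.2%, 14.5% and 17.3% with high fat diet, and 27.6%, 25.0% and 19.0% with SalB, so the order of the groups is not the one seen over all covering reads. The SalB values rest on 91 such reads, against 669 with normal diet and 331 with high fat diet.

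The 2 main Asp-GTC copies could be told apart at position 20 in 8946 reads. Asp-GTC-2-1 made up 22.9%, 24.6% and 19.2% of these with normal diet, 19.9%, 23.3% and 23.9% with high fat diet, and 15.3%, 11.2% and 14.7% with SalB. All SalB libraries lie under the others, which overlap, and 3 libraries against 3 cannot go below an exact p of 0.1. Within 5′ reads that end in the anticodon loop the groups overlapped, at 20.2% ± 2.3, 22.4% ± 4.6 and 16.8% ± 3.5 (SD, n = 3 each). Within internal reads that end ahead of the anticodon the shares were 30.7% ± 3.3, 27.3% ± 3.2 and 18.1% ± 3.8. In that class every SalB library lay under the others, and neither class was tested.

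Asn-GTT had another layout. Only 3 of its 1293 reads began at the first base: 1 with normal diet, 2 with high fat diet and 0 of 445 with SalB, a count that allows a share of up to 0.674% (counting error only). Instead 39.1%, 18.2% and 39.8% of reads in the normal diet replicates ran to the end of the CCA tail, as did 34.6%, 46.7% and 43.0% with high fat diet and 28.2%, 10.8% and 22.8% with SalB. SalB lies under high fat diet without overlap and overlaps normal diet, and the share did not pass (adjusted p = 0.19, exact permutation test). None of the 9 Asn-GTT shares that could be tested passed.

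Reads of Asn-GTT began mainly at bases 29 and 30, in the stem before the anticodon loop, at 36 and 37 within the anticodon, and at 60 to 62 near the T loop. Starts at base 36, just past the first anticodon base, made up 16.8% ± 5.0, 11.3% ± 4.5 and 20.0% ± 7.5 of reads (SD, n = 3 each). With at most 40 bases, a read from base 36 cannot reach base 77, the end of the CCA tail, and counts as internal. By last base, 21.8% ± 2.3, 16.5% ± 6.9 and 15.8% ± 3.0 stopped at base 55. On Asn-GTT-3-1 the break after base 55 reads ggtggtTCGAGC, and as at base 53 of Asp-GTC-1-1 the letters TCGA follow it. Other copies differ within these letters, by G56A in Asp-GTC-2-1 and by G58A in Asn-GTT-2-1 and Asn-GTT-4-1, and the Asp fragments that end at base 53 align to both main copies. The shares of reads ending at that break do not overlap between groups in Asp-GTC and overlap in Asn-GTT.

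**Figure D5:**
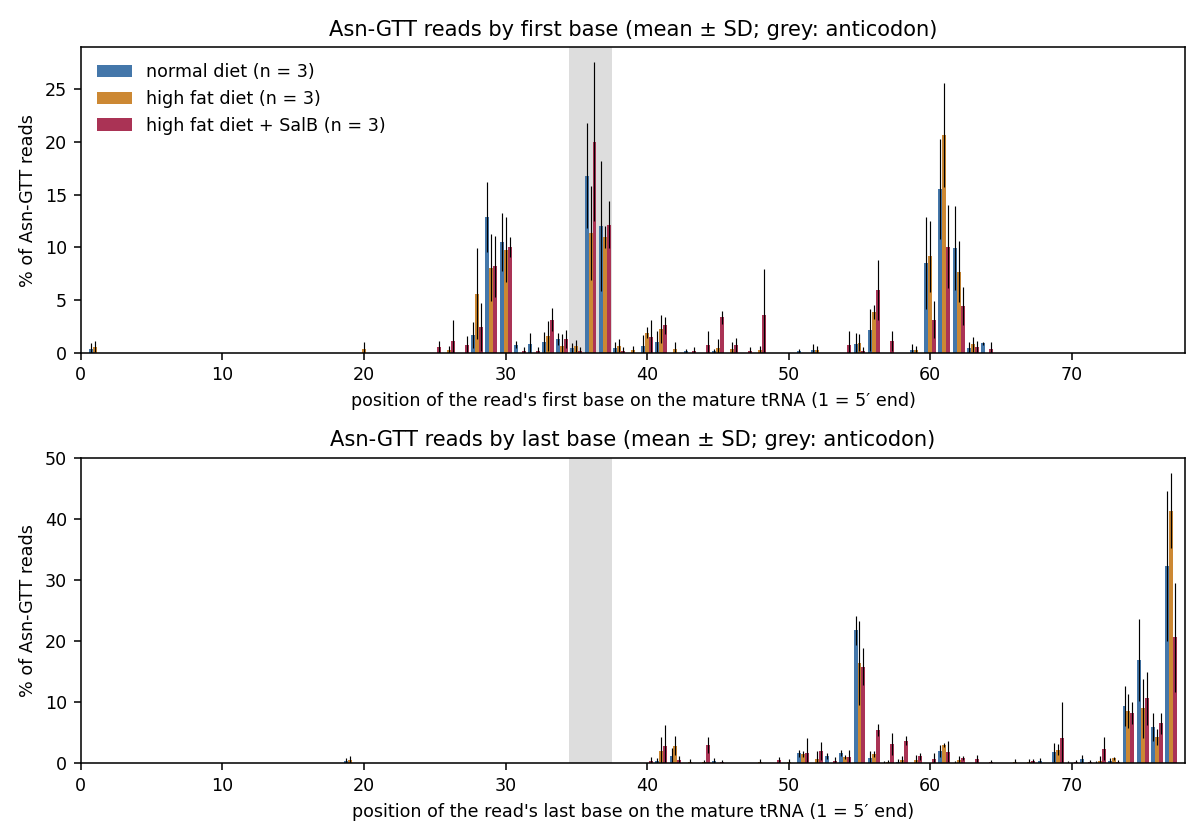
Percent of Asn-GTT reads by the position of their first base (upper panel) and last base (lower panel), as mean and SD of 3 libraries per group; grey marks the anticodon. Hardly any read starts at base 1, and the ends gather at base 55 (15.8% to 21.8%) and in the last 4 bases, with 20.6% to 41.4% at base 77.

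The Asn-GTT sum was 2067, 2788 and 2373 CPM with normal diet, 2232, 2607 and 2456 CPM with high fat diet, and 3213, 2982 and 2356 CPM with SalB. All groups overlap, and no comparison was called (log2 fold change 0.02, 0.22 and 0.24, SE 0.21 in each, limma-voom adjusted p = 0.98, 0.407 and 0.386). Asn 61 to 77, the most abundant tested fragment of the family, had 263, 141 and 236 CPM, 204, 406 and 255 CPM, and 254, 153 and 76.8 CPM. All groups overlap, and limma-voom called it in no comparison (adjusted p at least 0.289). Asn 60 to 77 had 10, 3 and 17 reads with normal diet and 2, 0 and 2 with SalB. It fell with SalB against normal diet (log2 fold change -2.42, SE 0.85, limma-voom adjusted p = 0.0433), a call lost without normal diet replicate 3 or SalB replicate 1 or 2 (-2.45, -2.66 and -1.49, adjusted p = 0.0787, 0.0607 and 0.18). Only 6 of the 9 fits without 1 library tested Asn 60 to 77, which did not pass the filter in the rest. The internal Asn-GTT reads that start past the first anticodon base gave 695, 1408 and 709 CPM, 715, 608 and 928 CPM, and 1598, 1542 and 1229 CPM. SalB stands above high fat diet in every library, but the class was not called (log2 fold change 0.94, SE 0.33, limma-voom adjusted p = 0.0621). The exception was the fit without normal diet replicate 2, which called it against both diets (adjusted p = 0.0447 and 0.0376, limma-voom).

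Of the other tRNAs that can carry queuosine, 6 families were listed: His-GTG, Tyr-GTA and the mitochondrial Asp, Asn, His and Tyr tRNAs. Of the 4 that could be tested, 1 rose and 1 fell with SalB against high fat diet, beside 34.0% of all families called, and 2 rose and 1 fell against normal diet, beside 36.9%. His-GTG rose against normal diet with a log2 fold change of 0.73 (SE 0.18, limma-voom adjusted p = 0.0159) and was not called against high fat diet (0.50, adjusted p = 0.0548). Tyr-GTA fell against both diets (log2 fold change -1.63 against high fat diet and -1.53 against normal diet, limma-voom adjusted p = 0.0424 and 0.0497), while SalB replicate 2, at 23260 CPM, lay in the range of the diets and the other SalB libraries stood at 3704 and 5633 CPM. Mitochondrial His rose against both, with log2 fold changes of 4.40 and 4.58 (limma-voom adjusted p = 8.06e-07 and 5.11e-07). Gly-GCC and Val-AAC are the other known Dnmt2 substrates with fragments here, and neither family sum was called (log2 fold change 0.43 and -0.39 for SalB against normal diet, limma-voom adjusted p = 0.177 and 0.39). By position class, Gly-GCC internal reads over the first anticodon base rose against normal diet (0.775, adjusted p = 0.0106, limma-voom). Against high fat diet they were not called (0.426, adjusted p = 0.104, limma-voom). Gly-GCC 5′ reads ending in the anticodon loop were not called against normal diet (-0.579, adjusted p = 0.349, limma-voom).

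As a description, the family whose levels over the 9 libraries were most like those of Asp-GTC was Cys-GCA (Pearson r of log2 CPM 0.74), followed by Thr-AGT (0.54) and Leu reads shared by anticodons AAG and TAG (0.52). For Asn-GTT they were precursor Val-CAC (0.84), precursor Thr-AGT (0.82) and Gly-TCC (0.81). Asp-GTC and Asn-GTT themselves had r = -0.30. Each was ranked among 102 families that share the same libraries and scaling.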

How the data were processed

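Per the labels' protocols, small RNA from serum was size-selected on a gel and sequenced with a kit made for tRNA fragments. The submitters' processing notes name FastQC, cutadapt, Bowtie, edgeR and build mm10 without versions, and the sources used here give no adapter settings. The deposited lists give, for each distinct read, its sequence, its references, its offset and a whole read count written in the read name, with lengths of 14 to 40 bases and at most 1 mismatch. Alignments of other RNA were not used here.

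Counts were summed per fragment, family, position class, and start and end. Features with at least 10 reads at the median depth of 44415 in at least 3 libraries and at least 15 in all were fitted in 1 limma-voom model of all 9 libraries (limma 3.58.1, R 4.3.3), with trimmed-mean scaling and Benjamini-Hochberg adjustment across all features, called under 0.05. The fit was tested on simulated data. With counts recovered from read names, limma-voom was taken as the count model, and limma on log2 values was run as an alternative. Shares were tested by exact permutation (Python 3.11.15, scipy 1.17.1). Named were the 10 most abundant tested Asp-GTC fragments and up to 5 of Asn-GTT, called members (up to 12 per direction), and the 5 smallest p-values where fewer than 3 were called. Asp 1 to 36 and 54 to 75 were named after their values were seen. Members and lists were chosen with earlier results of these data known. The alternatives tried were other scaling, filters, read lengths, reads without a mismatch, only the libraries compared, log2 values, a replicate block and each library left out. The shares were also taken without reads on the Leu-CAG-3-1 precursor, where 5 of 22 passed.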

Additional observations from a re-analysis of the deposited data

How the results depend on the processing

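The depth limits the fragments, since most members had too few reads to be tested, and intervals and limits cover counting error only. Of 34 tested members, 0 were called for high fat against normal diet, 10 for SalB against high fat diet and 21 for SalB against normal diet. Without the filter these counts were 1, 33 and 56 of 2191 members tested (1 risen and 0 fallen, 23 and 10, 36 and 20), with total count scaling 23 in the second, and with a stricter filter 12 in the third. The shares called over all fragments in these settings are not given, so the counts cannot be set against other tRNAs. Leaving out 1 library gave 4 to 12 in the second and 13 to 20 in the third. Of 5 member sums by origin (5′, internal or 3′) tested, 1 was called for SalB against high fat diet, beside 44 of 166 over all tRNAs. That count became 2 with total counts or reads of 16 to 40 bases, and 0 without the filter, with the replicate block or with only the libraries compared. Against normal diet 2 of the 5 were called, beside 57 of 166 over all tRNAs, and 1 with total counts, reads without a mismatch or only the libraries compared. Leaving out 1 library gave 0 to 2 and 1 to 2. Called position classes, 3 against high fat diet, became 1 with only the libraries compared and 1 to 4 with 1 library left out. The Asp-GTC sum for SalB against high fat diet turned to -0.014 with RLE size factors, -0.86 with total counts, -0.145 with reads without a mismatch and -0.07 with only the libraries compared, and ran from -0.12 to 0.277 with 1 library left out. Against normal diet it ran from -0.277 to 0.148, turning without SalB replicate 2. The Asn-GTT sum turned to -0.629 with total counts and -0.0 with reads without a mismatch against high fat diet, and to -0.545 with total counts against normal diet. For high fat against normal diet it ran from -0.084 to 0.155 with 1 library left out. With total counts, Asn-GTT internal reads against high fat diet turned to -0.168, and those past the first anticodon base to -0.04 against normal diet. Of the shares, 5 passed, and 5 to 9 with 1 library left out. Under the replicate block 0 passed (smallest adjusted p = 0.122, exact permutation test), but that design cannot give an unadjusted p under 0.0278, so this says little about stability, while called fragments were 11 and 19. Same-numbered libraries had correlations of -0.297 to 0.161, with 1 of 9 pairs over 0.1, and 1 library of 9 was closest to its own number, so the numbers were not taken as pairs. The cause was not tested for any of these.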

Other observations

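Precursor reads, which carry sequence outside the mature tRNA, were kept apart from the members. Precursor Asp-GTC stood at 244, 141 and 164 CPM with normal diet, 233, 116 and 146 CPM with high fat diet, and 327, 407 and 231 CPM with SalB. The SalB and diet libraries overlap, and the sum was not called (SalB against high fat diet, log2 fold change 0.94, SE 0.37, limma-voom adjusted p = 0.073). Precursor Asn-GTT had a log2 fold change of 0.47 in that comparison (SE 0.67, limma-voom adjusted p = 0.572).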
